A study of Homo sapiens with 8 samples.

Results

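Clustered histones are the genes that supply most of the histone protein made during DNA replication, and 57 probe sets of the array measured 1 of them each. A probe set belonged to the group when its single gene symbol was a clustered histone, that is, H1-1 to H1-6 or a name starting with H2AC, H2BC, H3C or H4C (older names start with HIST1H to HIST4H). One pseudogene was left out. The rule used no measured value. It gave 6 probe sets for H1, 14 for H2A, 16 for H2B, 8 for H3 and 13 for H4, of 33297 probe sets in the table and 21214 with a gene name. H4C14 and H4C15 carried the same value on each of the 8 arrays and were counted once, so 56 members, 12 of them H4, enter every count and median. H2BC8 and H1-5, the members named as markers of the group, were both measured.

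RNA came from T47D, an established luminal breast carcinoma line. All cells had received a lentivirus, which carried either a conditional short hairpin RNA (shRNA) against EglN2 or the Scr control hairpin. The EglN2 protein is one of the prolyl hydroxylases that sense oxygen. The 4 groups were the Scr line at day 0 (0 h of doxycycline) and day 2 (48 h of doxycycline, 1 ug/ml in the treatment protocol) and the EglN2 shRNA line at the same days. Each group had 2 arrays, numbered replicate 1 and replicate 2. The control is thus a second infected line given the same drug, and no uninfected cells and no second hairpin against EglN2 enter the comparisons. The labels do not say whether a line is 1 clone or a pool, or whether replicates are separate cultures, so each p-value reflects only how far these arrays lie apart, which may be technical.

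Replication-dependent histone genes lie in clusters, and their mRNAs are made mainly in S phase, when new DNA has to be packed into nucleosomes. These mRNAs have no introns and end in a conserved stem-loop in place of a poly(A) tail. The stem-loop is bound by SLBP, which takes part in 3′ end processing, translation and the rapid loss of histone mRNA when replication stops. H2A, H2B, H3 and H4 form the core of the nucleosome, and H1 binds the linker DNA between cores. Per the labels, biotinylated cRNA was made from total RNA by the manufacturer's standard protocol, and the primer of the first step is not stated. That step bears on how well mRNAs without a tail are captured, so a level on these arrays may hold both the amount of RNA and the share that was copied. In bulk RNA, fewer cells in S phase and less histone mRNA per cell cannot be told apart.

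The promoters differ by histone type, and 1 window per type is printed as an example of the letters the motif counts rest on. H1-5 and H2BC8 are the markers, H2AC15 and H4C4 had some of the largest differences described further on, and H3C1 had the largest line difference at day 2 among H3 genes. Each window is the 130 bases before the start of the gene in RefSeq's table of assembly GRCh38.p14, read 5′ to 3′ on the strand of the gene. They are H1-5 at chr6:27867589-27867718 (minus strand), H2AC15 at chr6:27838376-27838505 (minus strand), H2BC8 at chr6:26216689-26216818 (minus strand), H3C1 at chr6:26020321-26020450 (plus strand) and H4C4 at chr6:26189113-26189242 (minus strand). Capitals mark matches to the octamer ATTTGCAT of H2B promoters, to the CCAAT box, and to the motif called H1 box, AAACACA. They also mark the TATA box, TATAAA, and every motif was searched on both strands.
H1-5: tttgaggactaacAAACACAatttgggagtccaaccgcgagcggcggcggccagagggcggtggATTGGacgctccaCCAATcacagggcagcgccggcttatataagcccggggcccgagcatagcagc
H2AC15: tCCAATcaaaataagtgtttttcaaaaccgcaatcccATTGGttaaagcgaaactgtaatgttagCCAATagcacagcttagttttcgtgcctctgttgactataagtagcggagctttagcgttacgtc
H2BC8: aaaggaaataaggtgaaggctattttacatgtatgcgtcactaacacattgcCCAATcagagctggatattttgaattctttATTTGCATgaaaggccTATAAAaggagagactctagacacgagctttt
H3C1: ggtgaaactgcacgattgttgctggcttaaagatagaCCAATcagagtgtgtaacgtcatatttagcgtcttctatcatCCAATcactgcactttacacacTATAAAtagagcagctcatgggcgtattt
H4C4: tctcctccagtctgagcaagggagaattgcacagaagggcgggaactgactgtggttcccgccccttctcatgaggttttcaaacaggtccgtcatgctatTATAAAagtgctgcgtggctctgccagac
Counted from the gene's start, the H2BC8 window held an octamer whose first base is at -48, a CCAAT at -78 and a TATAAA at -32. The H4C4 window held TATAAA at -29 and no other of these motifs. The H2AC15 window held only CCAAT boxes, and neither an octamer nor TATAAA was found in its full 250 bases on either strand. Most H2A promoters had a match to each, but their octamer matches lay mostly on the other strand.

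Of the 57 genes, 52 had an entry in that promoter table, 44 on chromosome 6, 7 on chromosome 1 and 1 on chromosome 12. In the 250 bases before the start, the octamer (ATTTGCAT, or ATGCAAAT on the other strand) was found in 10 of 13 H2A and 13 of 16 H2B promoters, in 0 of 6 H1, 0 of 6 H3 and 0 of 11 H4 promoters, and in 1.66% of all 27305 promoters. CCAAT was found in all 6 H1, 13 H2A, 16 H2B and 6 H3 promoters, in 3 of 11 H4 promoters, and in 33% of all promoters. TATAAA was found in 34 of the 52, 10 of the 13 H2A promoters among them, and in 11.1% of all promoters. AAACACA was found in all 6 H1 promoters, in none of the other 46 and in 4.95% of all promoters. Back-to-back H2A and H2B genes start 214 to 247 bases apart, so their windows overlap and 1 match can count for both genes. H2AC8, for example, had its octamer match at -192 and its TATAAA match at -206, both on the other strand. Its neighbour H2BC8 had them at -48 and -32 on its own strand. The H2A and H2B counts thus do not show that each gene has a motif of its own. These matches are descriptions of the letters, and no factor binding was measured. No 2 matches overlap in the printed windows.

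Before the histones, the arrays were checked on the hairpin's target and on the cells. EGLN2, whose probe set also names a read-through transcript, had log2 levels of 8.97 and 9.00 before doxycycline and 8.81 and 8.90 after it in the Scr line. Its levels in the EglN2 shRNA line were 8.85 and 9.04 before doxycycline, against 8.26 and 8.29 after 48 h, the lowest of the 8 arrays. That difference of -0.67 (SE 0.11) had an adjusted p of 0.134 in limma with Benjamini-Hochberg adjustment and did not pass the threshold of 0.05. Values throughout are log2 levels, SE is the standard error of a difference from the fit of all 8 arrays, and with 2 arrays a group the median SE over named probe sets was 0.123 (0.174 for a difference of changes). Replicate arrays correlated at 0.992 to 0.996 over the 21214 named probe sets. All 10 luminal markers on the list were measured, and none passed the test in either line. The log2 of their summed level lay between 16.02 and 16.12 on the 8 arrays, a sum that mostly follows the 3 keratins KRT8, KRT18 and KRT19. TFF1, an oestrogen-induced luminal gene, was lower at day 2 in both lines without overlap, by -0.66 (SE 0.14, adjusted p 0.225 in limma) in the Scr line and -0.54 (SE 0.14, adjusted p 0.458) in the EglN2 shRNA line. ESR1, the oestrogen receptor, had -0.13 (SE 0.11) and -0.26 (SE 0.11). The 9 markers of stroma, leukocytes and endothelium summed to 10.04 to 10.32, highest on Scr day 0 replicate 1. They ranged from PTPRC of leukocytes at 4.14 to 4.35 to COL1A1, a collagen gene, at 8.49 to 8.89, with CD68 of macrophages at 7.51 to 7.91 and COL3A1 at 6.75 to 7.20. CD68 had -0.31 (SE 0.12) in the Scr line and 0.02 (SE 0.12) in the EglN2 shRNA line. The part of these markers in the histone values was not tested.

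Across the arrays the histones stood lowest in the Scr line at day 0 and highest in the same line at day 2. Each member was set against its own mean of 8 arrays, and the median of these deviations over the 56 members was -0.24 and -0.02 in Scr day 0 (replicates 1 and 2) and 0.09 and 0.22 in Scr day 2. It was -0.11 and 0.09 in EglN2 shRNA day 0 and -0.10 and 0.06 in EglN2 shRNA day 2. Both Scr day 2 arrays lay above both Scr day 0 arrays, while the 4 arrays of the EglN2 shRNA line overlapped between days. Over all named probe sets the same medians lay between -0.02 and 0.02. Replicate 1 of Scr day 0 was the lowest array for 31 of the 56 members, and replicate 2 of Scr day 2 was the highest for 37. Such counts were not made over all named probe sets, so these stand without a background.

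**Figure D1:**
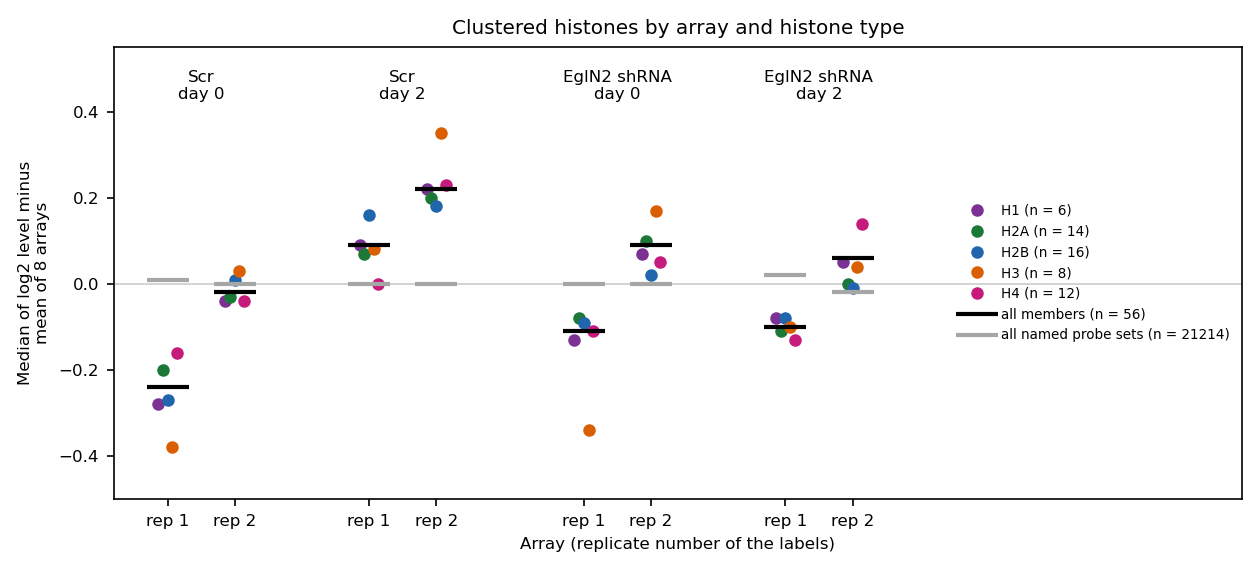
Median deviation of clustered histones from each gene's mean of 8 arrays (log2, vertical axis) on each array (horizontal axis), by histone type (coloured points), over all 56 members (black bars) and over all 21214 named probe sets (grey bars). Both Scr day 2 arrays, at 0.09 and 0.22, lie above both Scr day 0 arrays, at -0.24 and -0.02, and the EglN2 shRNA arrays of the 2 days overlap.

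Replicate numbers moved with the histones in all 4 groups. Replicate 2 was above replicate 1 for 46 of 56 members in Scr day 0, 44 in Scr day 2, 45 in EglN2 shRNA day 0 and 40 in EglN2 shRNA day 2. Of the 21214 named probe sets, replicate 2 was above for 9955, 10531, 9797 and 9106 in the same order of groups. Within replicate 1 the median difference between day 2 and day 0 was 0.34 in the Scr line and 0.03 in the EglN2 shRNA line. Within replicate 2 it was 0.23 and 0.00. With arrays matched by replicate number, the order of the lines was the same for both numbers. What the number stands for is not given in the labels. Matching by it is thus 1 of several ways to match the same arrays and is not separate evidence.

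**Figure D2:**
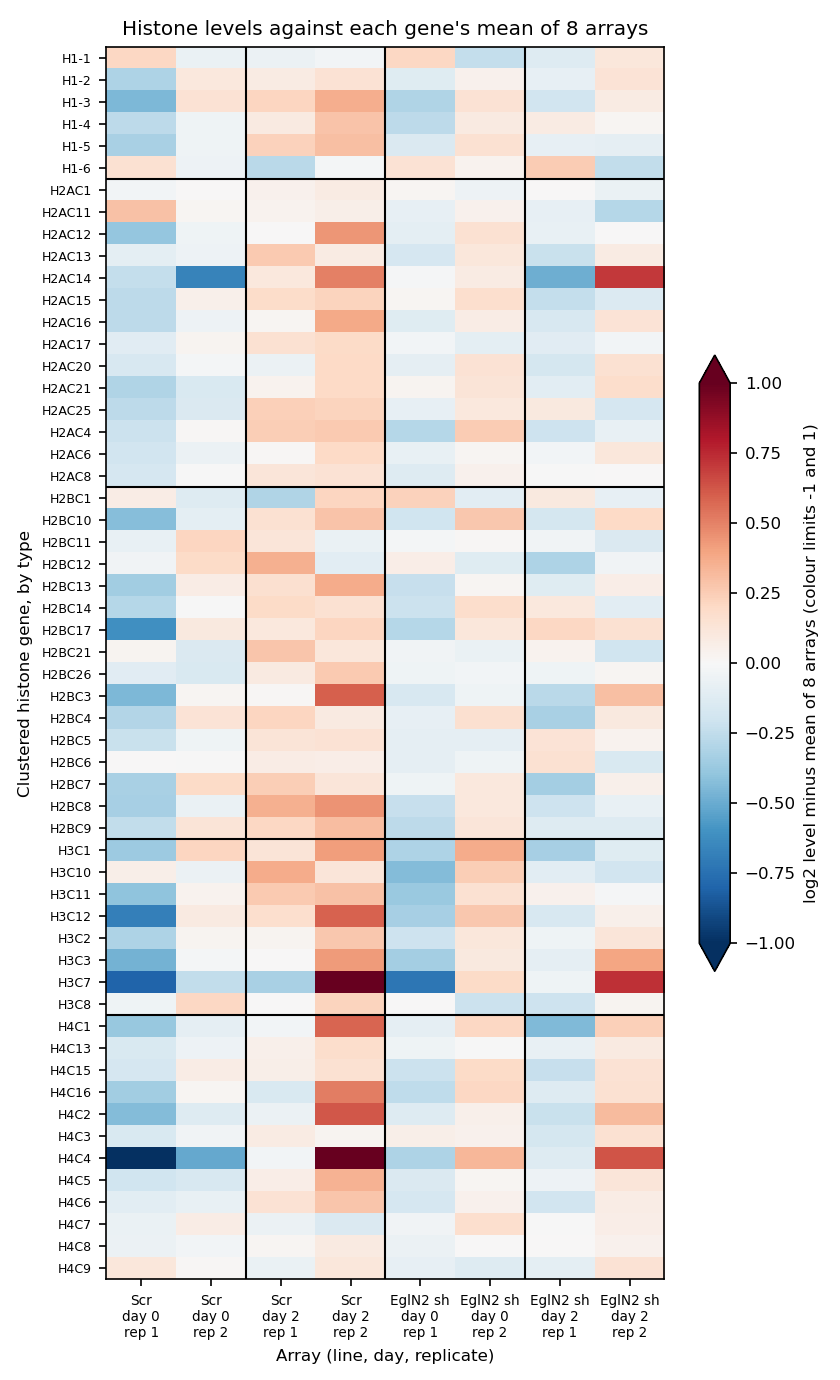
Log2 level of each of the 56 members minus its mean of 8 arrays (colour, limits -1 and 1), with genes in rows by histone type and arrays in columns by line, day and replicate. The Scr day 0 replicate 1 column is blue in most rows (lowest array for 31 members) and the Scr day 2 replicate 2 column is red in most rows (highest array for 37). Such counts were not made over all named probe sets.

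The first comparison asked how the control line differed between 0 and 48 h of doxycycline. Of the 56 members, 49 had a higher mean at day 2 than at day 0 and 7 a lower one, where 47.5% of named probe sets were higher and 51.4% lower. The members had a median difference of 0.30 (1.23-fold), quartiles of 0.16 and 0.44, and a range from -0.20 to 1.30. H4C4, H3C7, H2AC14, H3C12 and H2BC8 had the largest differences. No member passed the test (smallest adjusted p 0.242 in limma), and neither did any other named probe set (0% of 21214). At an unadjusted p under 0.05, 19 members were higher and 0 lower, against 7.49% of named probe sets higher and 5.36% lower. Both day 2 arrays lay above both day 0 arrays for 37 members (66.1%) and below them for 0, against 23% and 24.8% of named probe sets. The median over all named probe sets was within 0.01 of 0. Dropping replicate 1 of day 0 gave a histone median of 0.16, and dropping replicate 2 of day 2 gave 0.22. The count of 19 moved in both directions as single arrays were left out. It was 9 when the unnamed probe sets were fitted too, where no background share was counted.

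The second comparison was the same 48 h in the EglN2 shRNA line. There 27 members had a higher mean at day 2, 28 a lower one and 1 an equal one, where 50.6% of named probe sets were higher and 47.8% lower. The members had a median of 0.00, quartiles of -0.06 and 0.07 and a range from -0.28 to 0.61. No member passed the test (smallest adjusted p 0.859), where 2 of the named probe sets did (0.00943%). At an unadjusted p under 0.05 there were 0 members higher (2.73% of named probe sets) and 1 lower, H2AC15 (3.04% of named probe sets). The day 2 arrays lay on one side of the day 0 arrays for 2 members above (15.2% of named probe sets) and 2 below (15.5%). Leaving out replicate 1 of day 0 or replicate 2 of day 2 in this line gave a median of -0.08 or -0.07, and leaving out either of the other 2 arrays gave 0.10.

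The difference of these changes, EglN2 shRNA minus Scr, was below 0 for 52 of 56 members and above 0 for 4, where 48.4% of named probe sets were below 0 and 50.7% above. Its median was -0.29, with quartiles of -0.42 and -0.16 and a range from -1.06 to 0.16. No member passed (smallest adjusted p 0.676) and no named probe set did (0%). At an unadjusted p under 0.05, 4 members were lower (H1-5, H2AC15, H2AC25 and H2BC8) and 0 higher, against 3.98% and 3.14% of named probe sets. For 8 members all possible changes of the EglN2 shRNA line lay below those of the Scr line, and for 0 members above, against 10.4% and 10.1% of named probe sets, so this count (14.3%) is close to the background. Leaving out replicate 1 of Scr day 0 gave a median of -0.16, and leaving out replicate 2 of Scr day 2 gave -0.18. In the EglN2 shRNA line it was -0.19 when replicate 2 of day 0 was dropped and -0.17 when replicate 1 of day 2 was. The count of 4 moved in both directions as single arrays were left out. Such fits leave 1 array in a group and no background share was counted for them, so their counts are not given. This comparison uses the same arrays as the 2 before it and is not separate evidence.

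**Figure D3:**
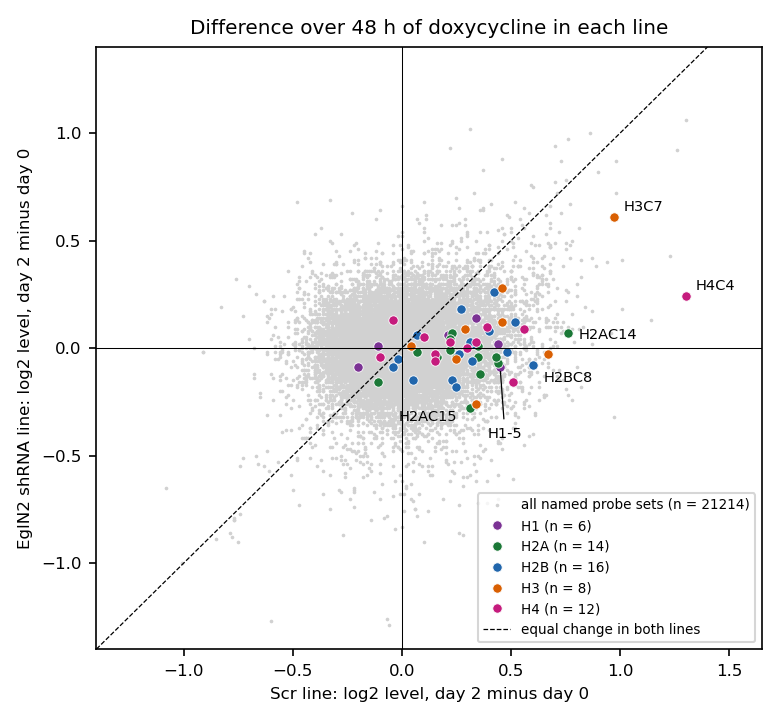
Difference in log2 level between day 2 and day 0 in the Scr line (horizontal axis) and in the EglN2 shRNA line (vertical axis) for all 21214 named probe sets (grey) and the 56 clustered histones (coloured by type). The dashed line marks equal change, and 52 of the 56 members lie below it.

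The linker histones H1 split into 4 genes with a higher level at day 2 in the Scr line and 2 with a lower one. H1-5 read 12.20 and 12.48 in Scr day 0, 12.75 and 12.82 in Scr day 2, 12.38 and 12.67 in EglN2 shRNA day 0, and 12.44 and 12.43 in EglN2 shRNA day 2. Both Scr day 2 arrays stood above the other 6 arrays, and the EglN2 shRNA days overlapped. The Scr difference was 0.45 (SE 0.13, 95% interval 0.15 to 0.74, adjusted p 0.278), the EglN2 shRNA difference -0.09 (SE 0.13), and the difference of changes -0.54 (SE 0.19, adjusted p 0.676). H1-3 differed by 0.44 (SE 0.21) in the Scr line and 0.02 (SE 0.21) in the EglN2 shRNA line, and its Scr groups did not overlap. H1-4, the gene whose Scr difference was 0.34 (SE 0.14), had 0.14 (SE 0.14) in the EglN2 shRNA line. H1-2 had 0.21 and 0.06. The other 2 went the other way with small values: H1-1 had -0.11 and H1-6, the linker histone of male germ cells, had -0.20 in the Scr line (SE 0.16 and 0.17). Their difference of changes was 0.12 and 0.11.

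Among the 14 H2A genes, 13 had a higher mean at day 2 in the Scr line (median 0.28), and 12 of them without overlap (23% of named probe sets). In the EglN2 shRNA line 4 were higher and 10 lower (median -0.04), and all 14 had a difference of changes below 0. H2AC15 read 9.14 and 9.45 in Scr day 0, 9.58 and 9.62 in Scr day 2, 9.42 and 9.57 in EglN2 shRNA day 0, and 9.16 and 9.26 in EglN2 shRNA day 2. Its 2 lines thus differed in opposite directions with no overlap in either, by 0.31 (SE 0.13) and -0.28 (SE 0.13). The difference of changes was -0.59 (SE 0.18, 95% interval -0.99 to -0.19, adjusted p 0.676). H2AC25, a gene outside the large chromosome 6 cluster, read 8.86 and 8.98, then 9.36 and 9.35, in the Scr line. In the EglN2 shRNA line it read 9.04 and 9.23, then 9.22 and 8.96, where the days overlap, and the difference of changes was -0.48 (SE 0.17). H2AC14 had the largest H2A difference in the Scr line, 0.76 (SE 0.32), but its replicates were far apart. In EglN2 shRNA day 2 they read 6.28 and 7.47, which span all 4 Scr levels but the lowest. H2AC11 was the only H2A gene with a lower Scr mean at day 2 (-0.11, SE 0.13). H2AC1, which is expressed mainly in testis, stayed between 5.37 and 5.52 on the 8 arrays.

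For the 16 H2B genes, the median was 0.29 in the Scr line, with 14 above 0, and -0.03 in the EglN2 shRNA line. All 16 had a difference of changes below 0, from -0.68 to -0.01. H2BC8 read 8.84 and 9.11 in Scr day 0, 9.53 and 9.62 in Scr day 2, 8.94 and 9.28 in EglN2 shRNA day 0, and 8.97 and 9.10 in EglN2 shRNA day 2. As for H1-5, the 2 Scr day 2 arrays were the highest and the other 6 overlapped. The Scr difference of 0.60 (SE 0.14, 95% interval 0.28 to 0.92, 1.52-fold) had the smallest p of any member in that comparison, with an adjusted p of 0.242. The EglN2 shRNA line had a difference of -0.08 (SE 0.14). The difference of changes was -0.68 (SE 0.20, 95% interval -1.13 to -0.22, adjusted p 0.676). H2BC26 had 0.31 (SE 0.10) and 0.03 (SE 0.10) in the Scr and EglN2 shRNA lines. H2BC17 and H2BC5 were the 2 members whose EglN2 shRNA day 2 arrays both lay above the day 0 arrays, with differences of 0.26 (SE 0.21) and 0.18 (SE 0.11). H2BC1, the testis form, had -0.02 and -0.05, and H2BC11 had -0.04 and -0.09.

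All 8 H3 genes had a higher Scr mean at day 2, with a median of 0.40, and all 8 had a difference of changes below 0. Their spread between replicates was also the widest of the types, with a pooled replicate SD of the median deviation of 0.255, against 0.129 over all members. H3C12 read 8.54 and 9.31 in Scr day 0, 9.39 and 9.81 in Scr day 2, 8.89 and 9.49 in EglN2 shRNA day 0, and 9.06 and 9.27 in EglN2 shRNA day 2. The Scr groups did not overlap, at 0.67 (SE 0.27), and the EglN2 shRNA groups did, at -0.03 (SE 0.27). Leaving out 1 array moved the Scr value of H3C12 between 0.29 and 1.06. H3C7 had a larger difference, 0.97 (SE 0.47), but Scr day 2 replicate 1 at 11.64 lay below Scr day 0 replicate 2 at 11.72. It also had the largest difference of any member in the EglN2 shRNA line, 0.61 (SE 0.47), with levels of 11.24 and 12.15 at day 0 and 11.92 and 12.69 at day 2. H3C1 had 0.34 (SE 0.24) in the Scr line and -0.26 (SE 0.24) in the EglN2 shRNA line. H3C8 had 0.04 and 0.01. H3-4, a testis H3 whose newer name the rule does not take up, was no member and had 0.08 (SE 0.13) in the Scr line.

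H4 held the member with the largest difference of all. H4C4 read 10.18 and 10.72 in Scr day 0, 11.20 and 12.29 in Scr day 2, 10.92 and 11.56 in EglN2 shRNA day 0, and 11.10 and 11.86 in EglN2 shRNA day 2. The Scr day 0 arrays were the 2 lowest and did not overlap with any other group, and the EglN2 shRNA days overlapped. Its Scr difference of 1.30 (SE 0.37, 95% interval 0.46 to 2.13, 2.45-fold) was the second highest of the 21214 named probe sets, with an adjusted p of 0.266. The difference of changes was -1.06 (SE 0.53, 95% interval -2.23 to 0.12). Single arrays moved both values: without replicate 2 of Scr day 2 they were 0.75 and -0.51, and without replicate 1 of Scr day 2 they were 1.84 and -1.60. At day 0 the EglN2 shRNA line read higher by 0.79 (SE 0.37, 95% interval -0.04 to 1.62, adjusted p 0.489 in limma). The Scr day 0 arrays enter both values. A low start in the Scr line, a high start in the other line and the spread of replicates cannot be told apart. Of the other H4 genes, H4C5 had 0.39 (SE 0.13) in the Scr line and 0.10 (SE 0.13) in the EglN2 shRNA line, and H4C6 had 0.30 and 0.00 (SE 0.13). H4C2 had 0.56 (SE 0.23) and 0.09 (SE 0.23). H4C7 and H4C9 had lower Scr means at day 2, by -0.10 (SE 0.11) and -0.04 (SE 0.12), and were the 2 H4 genes with a difference of changes above 0. Over the 12 H4 genes the medians were 0.26 in the Scr line and 0.03 in the EglN2 shRNA line.

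**Figure D4:**
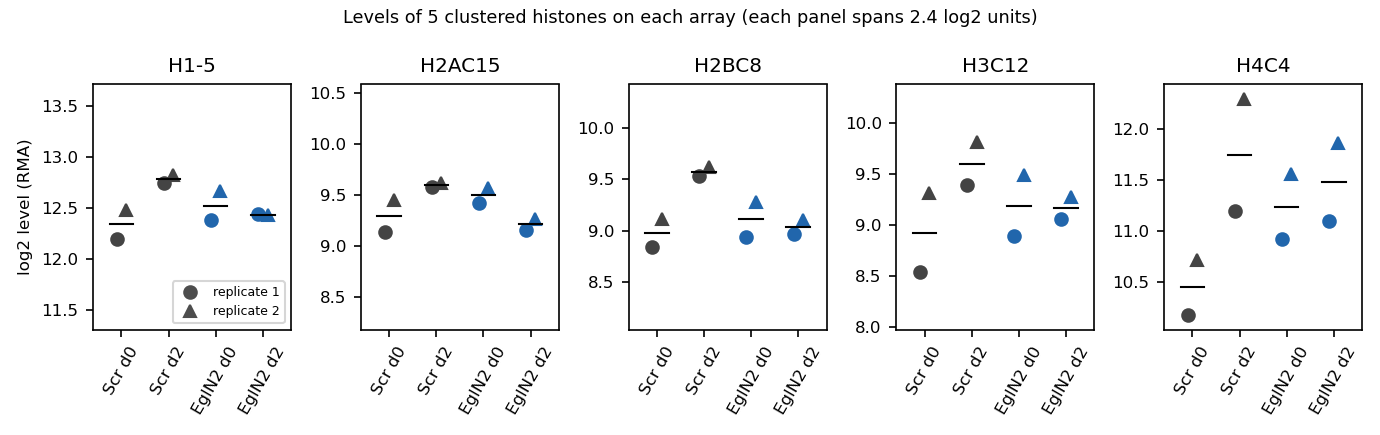
Log2 levels (vertical axes, each spanning the same number of log2 units) of H1-5, H2AC15, H2BC8, H3C12 and H4C4 by line and day (horizontal axis), with circles for replicate 1, triangles for replicate 2 and bars for group means. H1-5 and H2BC8 have their 2 highest arrays in Scr day 2, H2AC15 differs in opposite directions in the lines, and the replicates of H3C12 and H4C4 are further apart.

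The lines were also set against each other at each day. At day 0, before doxycycline, 45 members had a higher mean in the EglN2 shRNA line, 10 a lower one and 1 an equal one, where 50.1% of named probe sets were higher and 48.8% lower. Of the named probe sets with a mean level at or above the median of all, 66.5% were higher, with a median of 0.07. The members had a median of 0.09. None passed (smallest adjusted p 0.464, 0% of named probe sets), and 1 member, H2AC21, was higher and 0 lower at an unadjusted p under 0.05, against 5.16% and 5.27% of named probe sets. The groups did not overlap for 8 members higher in the EglN2 shRNA line and 2 lower, against 22.2% and 22.9% of named probe sets. H2AC21 read 11.90 and 12.05 in Scr day 0 and 12.23 and 12.33 in EglN2 shRNA day 0, a difference of 0.31 (SE 0.13). Dropping replicate 1 of the Scr line turned the median to -0.02, and dropping replicate 2 of the EglN2 shRNA line turned it to -0.01. Dropping the other replicate gave 0.20 for the Scr line and 0.22 for the EglN2 shRNA line, so the direction rested on single arrays. It was 0.04 after quantile normalization.

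At day 2, 50 members had a lower mean in the EglN2 shRNA line, 5 a higher one and 1 an equal one, where 48.1% of named probe sets were lower and 50.3% higher. The median was -0.20 and the range -0.54 to 0.14. No member passed (smallest adjusted p 0.437), where 16 of the named probe sets did (0.0754%). At an unadjusted p under 0.05, 7 members were lower and 0 higher, against 2.69% and 2.49% of named probe sets. These were H1-5, H2AC4, H2AC15, H2AC17, H2BC8, H2BC9 and H2BC21. Both EglN2 shRNA arrays lay below both Scr arrays for 22 members (39.3%) and above them for 1, against 14.8% and 15.6% of named probe sets. H2BC8 had the largest difference, -0.54 (SE 0.14), and H3C1 had -0.50 (SE 0.24). Dropping replicate 1 of the EglN2 shRNA line or replicate 2 of the Scr line gave a median of -0.09 and lowered the count of 7. That count was 4 when the unnamed probe sets were fitted too, where no background share was counted. The Scr day 2 arrays serve in this comparison and in the Scr line's own, so a high array there enters both.

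Bright and dim members differed. Of the 56, 40 had a mean level at or above the median of all named probe sets. In the Scr line all 40 were above 0, with a median of 0.33, and in the difference of changes all 40 were below 0, with a median of -0.33. The 16 dimmer members had medians of 0.05 and -0.05, with 9 of 16 above 0 in the Scr line. The whole table leaned the same way with level: the 10607 brighter named probe sets had a median of 0.05 in the Scr line (6437 above 0) and the 10607 dimmer ones -0.07. In the difference of changes these medians were -0.06 and 0.08. Between the lines at day 0 they were 0.07 (66.5% higher) and -0.08 (33.7% higher). The 40 brighter members had 0.10 there and the 16 dimmer ones 0.02. Between the lines at day 2 the named probe sets had 0.01 and 0.00, and the members -0.26 and -0.10. At an unadjusted p under 0.05 in the Scr line, 17 of the 40 brighter members were higher, against 1185 of the 10607 brighter named probe sets. The part of this lean in the histones' values was not tested, and after quantile normalization the histone medians were 0.25 in the Scr line and -0.23 in the difference of changes.

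The members were also set out by their place in the genome. The 49 counted members on chromosome 6 had a Scr median of 0.30 and a difference of changes of -0.30, and the 6 on chromosome 1 had 0.28 and -0.28, each of those 6 above 0 in the first and below 0 in the second. H4C16, the member on chromosome 12, had 0.34 and -0.32. In 9 places an H2A and an H2B gene with promoter entries start back to back, 214 to 247 bases apart. The Scr differences of such neighbours were a median of 0.13 apart, against 0.17 over all 224 combinations of an H2A and an H2B gene. For the difference of changes these were 0.08 and 0.19, in the EglN2 shRNA line 0.08 and 0.10, and between the lines at day 0 0.10 and 0.12. Between the lines at day 2 the order was the other way, at 0.15 for neighbours and 0.12 for all combinations. H2BC8 and its neighbour H2AC8, 232 bases apart, had 0.60 and 0.22 in the Scr line, the second widest gap after H2AC14 and H2BC14 at 0.76 and 0.32. The 13 H2B genes with an octamer on either strand had a Scr median of 0.26 (range -0.04 to 0.60) and an EglN2 shRNA median of -0.05 (-0.18 to 0.26). The 3 without one, H2BC5, H2BC13 and H2BC26, had 0.31 (0.27 to 0.40) and 0.08 (0.03 to 0.18), and this split was not tested. Among the 13, H2BC17, whose EglN2 shRNA value is the 0.26, had its only match on the other strand, at -149. Its neighbour H2AC17 had a match at -98 on its own strand, so the match may be the neighbour's.

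A further 20 probe sets name a clustered histone together with other genes and are no members. They often stand for near-identical copies, whose probes can take up each other's RNA. In the Scr line 19 of these 20 were higher at day 2, with a median of 0.21, and in the EglN2 shRNA line the median was 0.02. None passed the test in the difference of changes (smallest adjusted p 0.652), where their median was -0.24. The same sharing can hold for members, since clustered histones of one type are alike in their coding sequence, so a value may belong to several genes.

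Genes that work with the histones were described from 4 lists. Of 12 histones listed as replication-independent, 9 were measured. Most such genes are expressed outside S phase as well, from polyadenylated mRNAs, while H2AX also yields a stem-loop mRNA without a tail. Their median was 0.10 in the Scr line and -0.14 in the difference of changes, with 8 of 9 above 0 and 8 of 9 below 0. All measured genes of the 4 lists were among the brighter named probe sets. Of those 10607, 60.7% were above 0 in the Scr line and 6431 were below 0 in the difference of changes. MACROH2A2, a macroH2A variant, had 0.41 (SE 0.13) in the Scr line, and H2AZ1, the H2A.Z variant, had 0.31 (SE 0.11). H3-5 had -0.31 (SE 0.11) in the EglN2 shRNA line. No gene of this list passed the test in any of the 5 comparisons.

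Of 24 genes for histone mRNA processing, the histone locus body and mRNA decay, 22 were measured, and none passed. In the Scr line 15 were above 0 (68.2%) and 7 below, with a median of 0.11, where 60.7% of the brighter named probe sets were above 0. SLBP, the stem-loop binding protein, read 10.56 and 10.65 in Scr day 0 and 10.35 and 10.34 in Scr day 2, a difference of -0.26 (SE 0.10), opposite in sign to the histone median. Its levels in the other line were 10.43 and 10.49, then 10.43 and 10.28. LSM11, a subunit of the U7 particle that cleaves histone pre-mRNA, had 0.35 (SE 0.11) in the EglN2 shRNA line. CCNE1, the cyclin E that drives entry into S phase with CDK2, had -0.30 (SE 0.12) there. The difference of changes was below 0 for 14 of 22 and above 0 for 8 (36.4%), with a median of -0.16. Of the brighter named probe sets 38.4% were above 0 there, so this count is close to the background.

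All 22 histone chaperones and assembly factors were measured, with a Scr median of 0.09 and 16 above 0 (72.7%). Among the brighter named probe sets 60.7% were above 0. ASF1A, a chaperone that hands H3 and H4 on for assembly, read 8.19 and 8.73 in Scr day 0, 8.94 and 8.96 in Scr day 2, 9.05 and 8.79 in EglN2 shRNA day 0, and 8.66 and 8.73 in EglN2 shRNA day 2. It had 0.49 (SE 0.17) in the Scr line and -0.72 (SE 0.24) in the difference of changes, with the lowest level on Scr day 0 replicate 1. NASP, a chaperone of soluble H3 and H4, had 0.46 (SE 0.13) in the Scr line and ASF1B had 0.43 (SE 0.14). None of the 22 passed in any comparison, and the median difference of changes was -0.10.

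Of 27 genes of S phase and DNA replication, 26 were measured. In the Scr line 21 were above 0, with a median of 0.13, in the EglN2 shRNA line 21 were below 0, with a median of -0.09, and the difference of changes was below 0 for 25 of 26, with a median of -0.24. Of the 10607 brighter named probe sets, 6437 were above 0 in the Scr line and 5311 below 0 in the EglN2 shRNA line. The difference of changes was below 0 for 6431 of them. No gene of the S phase list passed in any comparison. RFC3, a clamp loader subunit, had 0.60 (SE 0.16) in the Scr line, and TK1, thymidine kinase, had 0.39 (SE 0.12). In the EglN2 shRNA line CDT1, a replication licensing factor, had -0.51 (SE 0.13), RRM2, a ribonucleotide reductase subunit, had -0.46 (SE 0.12), and CLSPN, a checkpoint adaptor, had -0.68 (SE 0.19). By array the median deviation of this list was -0.16 and 0.05 in Scr day 0, 0.04 and 0.15 in Scr day 2, -0.04 and 0.14 in EglN2 shRNA day 0 and -0.11 and 0.03 in EglN2 shRNA day 2. As for the histones, Scr day 0 replicate 1 was the lowest array and Scr day 2 replicate 2 the highest. The highest value, 0.15, was close to the 0.14 of EglN2 shRNA day 0 replicate 2. Unlike for the histones, the Scr days overlapped, with day 2 replicate 1 at 0.04 below day 0 replicate 2 at 0.05. The share of cells in S phase was not measured, and its part in the histone values was not tested.

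**Figure D5:**
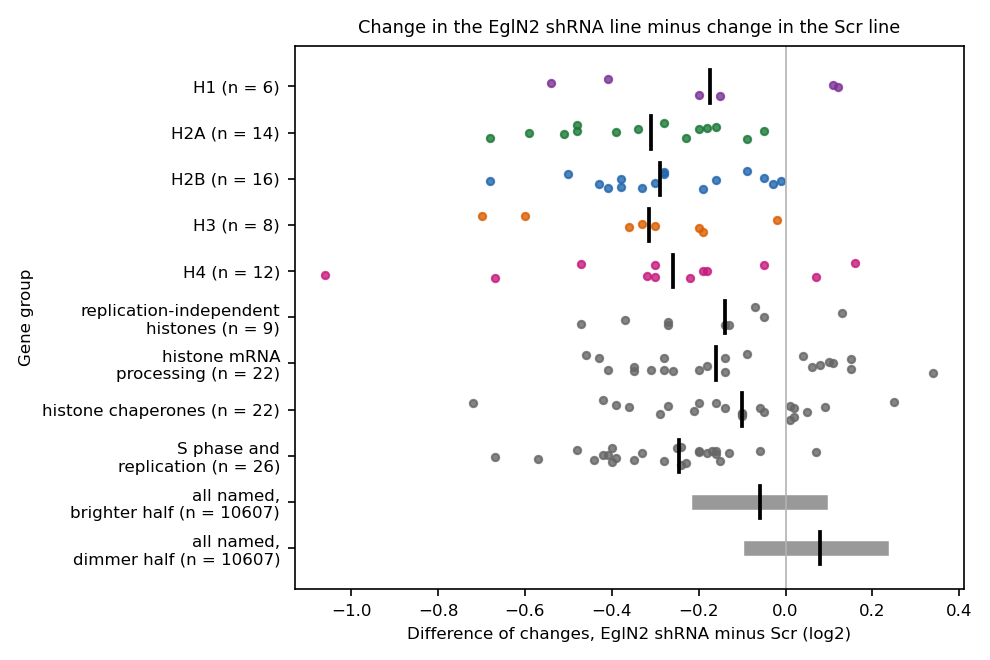
Difference of changes, EglN2 shRNA minus Scr (log2, horizontal axis), for each clustered histone by type (coloured points), for the genes of 4 related lists (grey points) and for the 10607 brighter and 10607 dimmer named probe sets (grey bars, quartiles), with black lines for medians. The histone types have medians from -0.32 to -0.18, the S phase list -0.24, and the brighter and dimmer named probe sets -0.06 and 0.08.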

How the data were processed

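RNA of 4 groups of 2 arrays was measured on Affymetrix gene arrays. The authors deposited log2 levels, 1 per probe set, which the submitters' processing notes credit to RMA in Affymetrix Expression Console (versions not given in the sources used here). This method subtracts background, brings the arrays to a common distribution and merges probes, so it shrinks differences of dim genes and can hide a shift shared by most genes. The values were used as deposited. Single gene names (19460 probe sets, with 1754 more naming several genes and 12083 unnamed) were updated by gene ID through RefSeq's GRCh38.p14 table, which matched 19429. A model with 1 mean per group was fitted to the 8 arrays in limma 3.58.1 (R 4.3.3) (4 residual and 5.53 prior degrees of freedom), giving 5 two-sided comparisons adjusted by Benjamini-Hochberg over 21214 probe sets. Exact permutation of 2 arrays against 2 cannot go below p = 0.333 and was not run. The fit was tested on simulated data.

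Named genes are EGLN2, H2BC8 and H1-5, up to 2 members per histone type and comparison by the size of the moderated t, and up to 4 genes per list by p; other members were chosen for naming after their values were seen. Members and lists were chosen with earlier results of these data known. Scanner files were not analysed here. Alternatives were the probe sets tested, centring, quantile normalization, the prior, the arrays fitted, the replicate block and leaving out each array.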

Additional observations from a re-analysis of the deposited data

How the results depend on the processing

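The histone medians kept their sign in the Scr line, the difference of changes and at day 2 under every alternative run. A median could change only with centring, quantile normalization, the brighter probe sets or an array of the comparison left out. The other alternatives change the standard errors or the adjustment and leave the medians as they are. Leaving out 1 array gave 0.16 to 0.43 in the Scr line, -0.41 to -0.16 in the difference of changes, -0.30 to -0.09 at day 2, -0.02 to 0.22 at day 0 and -0.08 to 0.10 in the EglN2 shRNA line. Members passing the adjusted threshold numbered 0 throughout, except 1, H4C4 in the Scr line with the replicate block (adjusted p = 0.0296 in limma). Over all named probe sets, the count passing was 2 in the EglN2 shRNA line. It was 0 with all probe sets or only the arrays of the comparison, 1 with one probe set per gene, 4 among the brighter probe sets, and 0 to 2 without 1 array. In the Scr line it was 0, then 7 among the brighter ones and 6 with a prior following the level. The difference of changes gave 0, and 2 with that prior. At day 2 it was 16, then 0 with all probe sets or only the arrays compared, 34 among the brighter probe sets, 26 with that prior, and 0 to 15 without 1 array. With the replicate block these counts were 13 in the EglN2 shRNA line, 42 in the Scr line and 32 at day 2, and members at an unadjusted p under 0.05 were 32 against 19 (Scr line), 15 against 4 (difference of changes) and 15 against 7 (day 2). The replicate deviations of the groups correlated at 0.098 to 0.271, and with 2 numbers this does not show that they pair the samples. The 19 became 9 with all probe sets, and the 7 became 4. Shares of all named probe sets at an unadjusted p under 0.05 are not given for any alternative. The member counts with the block or with all probe sets therefore stand without a background. The single-gene values over all alternatives numbered 2140, many from alternatives that cannot change a difference. Of them 13 turned sign, each without 1 array of its comparison. Leaving out 1 array gave, in the EglN2 shRNA line, -0.12 to 0.00 for H2AX, -0.25 to 0.02 for CHAF1A, -0.27 to 0.01 for H1-10, -0.25 to 0.09 for H2BC8, -0.24 to 0.05 for H1-5 and -0.04 to 0.31 for H1-4. Between the lines at day 0 it gave -0.13 to 0.06 for EGLN2, -0.31 to 0.14 for H1-1, -0.03 to 0.31 for H2BC8, -0.12 to 0.65 for H3C12 and -0.01 to 0.45 for HAT1. The causes were not tested. With 2 arrays a group, a difference of changes had a median SE of 0.174.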
